A study of Homo sapiens with 17 samples.

Results

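The late drift described here is what still changed in IMR32 cells after the first 48 to 72 labelled time units of NOTCH3IC induction. IMR32 is a neuroblastoma line of human origin that carries extra copies of MYCN, and NOTCH3IC is the intracellular, active domain of the receptor NOTCH3, expressed from a doxycycline-inducible construct in 2 clones, c6 and c8. The members were chosen by the labelled time alone. The end arrays were clone c6 at times 96 and 120 and clone c8 at time 96 (3 arrays), and they were set against the arrays of times 48 and 72 of both clones (4 arrays), with the clone as a block. These are 7 of the 17 arrays of the series.

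Earlier arrays were used only to place the drift: the middle arrays (times 12 and 24 of both clones, 4 arrays) and the start arrays (time 0 of both clones, 2 arrays). All 7 late arrays came from cells carrying the construct and kept in medium with doxycycline. No array of the late times came from a culture left without it, so time in culture, doxycycline and NOTCH3IC cannot be told apart. The labels give times without a unit and do not say whether each time was a separate culture. Each clone and time had 1 array, so neighbouring times take the place of replicates, and time 120 exists in clone c6 only. The late p-values therefore rest on scatter among 7 arrays, which may be technical. The test used, limma, also moderates each gene's variance towards that of genes of similar signal. The p-values and standard errors are thus not those of the gene's own scatter alone.

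NOTCH3 is best known in the cells that wrap blood vessels, the vascular smooth muscle cells and pericytes, where Notch signalling supports the contractile state. In such cells the contractile genes are switched on by serum response factor (SRF), which binds the CArG box, together with its partner myocardin (MYOCD). Their products form actin filaments, the smooth muscle myosin that pulls on them, the kinase that starts contraction and the adhesion plaques that anchor the filaments to the matrix. Neuroblastoma cells derive from sympathetic neuroblasts, which are marked by noradrenergic transcription factors and by enzymes and granules of catecholamine release.

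The deposited values are microarray signals on a linear scale, all arrays having been scaled to the same trimmed mean. Median signals were 16.8 to 18.7 on the end arrays and 15.5 to 17.9 on the arrays of times 48 and 72. Differences are log2(signal + 16), given ± the standard error of the fit, and the number of arrays limits the precision. The ratio of 3' to 5' signal, a measure of RNA integrity, was 0.930 to 1.06 for GAPDH at the end against 0.952 to 1.06 at times 48 and 72, and 1.30 to 1.56 against 1.23 to 1.60 for ACTB. Among markers of the line, MYCN had signals of 5231.9 and 4858.3 (c6) and 4545.0 (c8) at the end, against 4937.4 and 4857.4 (c6) and 4237.5 and 4830.5 (c8) at times 48 and 72, and the noradrenergic transcription factor GATA3 had 3100.2 to 4025.5 against 3144.6 to 3771.4. The catecholamine enzyme TH, a defining marker of sympathetic cells, was at or under 2.0 on the end arrays and at or under 8.5 at times 48 and 72. PHOX2A had 582.8 to 755.5 at the end against 736.8 to 1030.6, and DBH 3.9 to 42.9 against 35 to 56.4. HAND2 had 102.8 to 129.2 against 62.7 to 122.3, and ISL1 263.7 to 374.6 against 236.9 to 385.9. The 7 neuroblast markers summed to 8812.1 to 10349.4 at the end, against 8557.9 to 9945.4, and MYCN and GATA3 made up most of that sum. The 2 Schwann cell markers measured, S100B and SOX10, and the leukocyte marker PTPRC were under 16 on all 7 arrays. The leukocyte marker CD3E lay at 13.2 to 19 at the end and at 1.5 to 20.3 at times 48 and 72. The 7 smooth muscle and pericyte markers summed to 10098.9 to 14123.8 at the end, against 3766.7 to 8732.0, with DES, at 9.4 to 18.7 against 3.6 to 14.2, near the bottom of the scale. ACTA2 and RGS5 made up most of that sum, CNN1 overlapped between the groups, and PDGFRB had 47.1 to 66.1 against 56.3 to 86.9. The 6 fibroblast markers summed to 1240.8 to 2700.9, against 890.5 to 1485.8, with FAP under 16 on all 7 arrays and COL1A2 at 0.6 to 17.7 against 13.7 to 19. The part of cells of another kind in the results was not tested.

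Stretches of promoter are shown for the genes with a late rise that carry a CArG box, because the smooth muscle and pericyte list held more of the rising genes than any other list. The sequences are RefSeq promoter windows of assembly GRCh38.p14, running from 250 bases before to 50 bases after the annotated start, 5′ to 3′, with the CArG box in capitals. Of the 57 genes whose signal rose over late time, 40 had a window in the table, and 3 of these 40 (7.5%) held a CArG box on either strand. The 17 genes not looked at were TAGLN, MYH11, MYOCD, MYL4, MGP, LUM, CCN1, CRYAB, COL14A1, LGALS1, IRAG1, CGAS, CAVIN1, IFITM2, EPS8, SYTL2 and CLDN19. A CArG box was found in 187 of the 11053 tested genes with a window (1.69%) and in 1.29% of all 35116 windows of the table. The 3 genes were ACTG2, which encodes smooth muscle gamma actin, MYLK, which encodes myosin light chain kinase, and ACTN1, which encodes the actin crosslinker alpha-actinin.
ACTG2 (chr2:73892758-73893057, plus strand): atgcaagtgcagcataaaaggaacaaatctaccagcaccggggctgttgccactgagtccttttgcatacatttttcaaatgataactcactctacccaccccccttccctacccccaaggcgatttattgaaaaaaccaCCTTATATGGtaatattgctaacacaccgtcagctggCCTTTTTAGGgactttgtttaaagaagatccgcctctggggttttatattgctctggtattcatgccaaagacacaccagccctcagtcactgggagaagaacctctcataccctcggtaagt
MYLK (chr3:123620499-123620798, minus strand): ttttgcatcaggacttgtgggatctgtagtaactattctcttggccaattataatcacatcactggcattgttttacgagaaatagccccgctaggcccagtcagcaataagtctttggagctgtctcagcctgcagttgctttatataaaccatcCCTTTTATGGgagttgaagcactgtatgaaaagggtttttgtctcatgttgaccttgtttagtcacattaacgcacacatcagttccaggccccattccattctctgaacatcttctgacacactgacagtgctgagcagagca
ACTN1 (chr14:68977517-68977816, minus strand): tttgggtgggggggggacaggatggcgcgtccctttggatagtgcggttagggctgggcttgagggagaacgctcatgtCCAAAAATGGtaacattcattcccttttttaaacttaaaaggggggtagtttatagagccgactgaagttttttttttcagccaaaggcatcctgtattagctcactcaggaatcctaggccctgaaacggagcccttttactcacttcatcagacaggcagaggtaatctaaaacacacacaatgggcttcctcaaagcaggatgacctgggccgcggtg
ACTG2 held 2 CArG boxes, which began 110 and 73 bases before its start. The box of MYLK began 94 bases and that of ACTN1 171 bases before the start, and other windows of ACTN1 held none. The letters GTGGGAA, the core to which the Notch partner RBPJ binds, were found on either strand in 4 of the 40 genes (10.0%), against 8.05% of the tested genes with a window. A match is a description of letters and not a measured site.

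No gene passed the planned comparison of the end with times 48 and 72. With limma, 0 of 13675 genes had an adjusted p under 0.05 (0% called), the smallest adjusted p was 0.105, and 878 genes (6.42%) had an unadjusted p under 0.05, of which 521 (3.81%) were higher at the end and 357 (2.61%) lower. The genes with a large difference lay on one side: 23 genes (0.168%) were 2-fold or more higher at the end and 1 gene (0.00731%), the kinesin gene KIF21B, was 2-fold lower, while the median over all genes was 0.00. The end arrays lay entirely above the arrays of times 48 and 72 of their own clone for 1016 genes (7.43%) and entirely below for 875 genes (6.40%). With the array of clone c6 at time 72 left out, 8 genes were called higher, among them PLN, TMTC1, RGS5, MGP, TNMD, CCN2 and ANXA1.

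The arrays of times 48 and 72 were themselves not flat, so they are called by their times here and not a plateau. Between time 48 and time 72 limma called 10 genes higher (0.0731%) and 1 lower (0.00731%). The 10 were CCN1, MGP, ACTG2, CCN2, LMOD1, TNMD, MYL4, CLDN19, RAC3 and RAD23B, of which the first 8 also rose over the whole late course. That course includes the same arrays of times 48 and 72, so a large step between them also counts towards the rise over it. The overlap is therefore a description and tests nothing. Between times 72 and 96 limma called 0 genes (639, or 4.67%, at an unadjusted p under 0.05), and between times 96 and 120, a step that rests on 1 array of clone c6, it called 0 genes (441, or 3.22%).

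A slope over the labelled time across the same 7 arrays, an alternative to the comparison of blocks, called 57 genes rising (0.417%) and 9 falling (0.0658%). Units are log2 per 24 labelled time units, so that 48 to 120 spans 3 such steps. The 57 had a median slope of 0.44, from 0.25 to 1.13, and a median difference between the end and times 48 and 72 of 0.83. Step by step, their median change was 0.40 between times 48 and 72, 0.48 between times 72 and 96 and 0.50 between times 96 and 120. Of the 57, 41 had a higher signal at each late step in both clones, against 155 of all 13675 genes (1.13%). End arrays lay above those of times 48 and 72 in both clones for 53, against 1016 of all genes (7.43%). The 57 were chosen on these same arrays, so the step values and these counts describe them and test nothing. The count depends on the outermost arrays: 17 genes rose without the array of clone c6 at time 48, and 17 without the array at time 120. Of the 9 falling genes, 7 had a lower signal at each late step in both clones, against 117 of all genes (0.856%). In the fits without c6 at time 48 and without time 120, 1 gene was called falling, and 23 were called falling without the array of clone c8 at time 48.

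**Figure D1:**
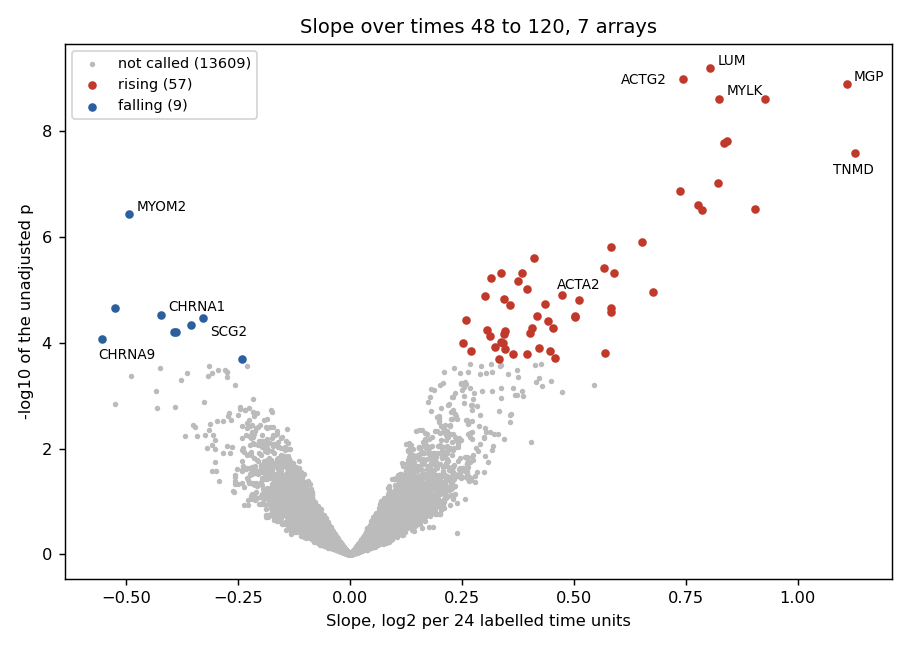
Slope of each of 13675 genes over times 48 to 120 (horizontal axis, log2 per 24 labelled time units) against minus log10 of its unadjusted limma p (vertical axis). Red points are the 57 rising genes and blue points the 9 falling genes at an adjusted p under 0.05; TNMD and MGP have the steepest slopes, 1.13 and 1.11.

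The clones share no array, so genes called in one were looked up in the other. Genes vary together within an array, and both clones share time in culture and doxycycline. The counts of genes below are therefore a description of 1 comparison of 2 clones, and the genes are not replicates. In clone c6 alone, a slope over its 4 late arrays called 85 genes rising, and 84 of these had a positive slope over the 3 late arrays of clone c8, where 49.3% of all genes had one. An unadjusted p under 0.05 with a positive slope was reached in clone c8 by 23 of the 85, against 2.01% of all genes. Of 19 genes called falling in c6, 16 had a negative slope in c8, against 50.7% of all genes, and 6 had one with an unadjusted p under 0.05, against 1.16% of all genes. In the other direction, 16 genes rose in c8 alone and 12 of them had a positive slope in c6, against 51.4% of all genes. Across all 13675 genes, which are not independent replicates, the late change of c6 and that of c8 had a Pearson r of 0.18 and a Spearman rank correlation of 0.15.

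Of the 57 rising genes, 10 were on the smooth muscle and pericyte list, and the list with the next most, targets of YAP and TEAD, held 5. Of the 24 smooth muscle and pericyte genes, 22 were tested, 10 rose by the slope and 0 fell, 10 had end arrays above and 1 had end arrays below those of times 48 and 72 in both clones, and the list's median difference was 0.46. Over all genes, 0.417% rose and 0.0658% fell by the slope, 7.43% had end arrays above and 6.40% below, and the median was 0.00. Without the array of clone c6 at time 48, 6 of its genes rose. The median member stood 0.38 and 0.66 above the clone's own mean of times 48 and 72 at times 96 and 120 in clone c6, and 0.35 above it at time 96 in clone c8, and at time 0 it had stood 1.37 below it in c6 and 1.31 below it in c8. More cells of one kind and more RNA per cell cannot be told apart in such bulk samples.

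MYLK encodes the kinase that phosphorylates myosin and so starts smooth muscle contraction. Its signal was 1496.4 and 2136.2 (c6, times 96 and 120) and 1216.0 (c8, time 96), against 320.1 and 680.8 (c6, times 48 and 72) and 521.9 and 856.0 (c8). Every end array lay above every earlier late array, with a difference of 1.48 ± 0.26 (limma adjusted p = 0.105, not passed) and a slope of 0.82 ± 0.07 (adjusted p = 6.7e-06). ACTG2, smooth muscle gamma actin, had 343.5 and 526.9 (c6) and 330.4 (c8) at the end, against 101.0 and 189.4 (c6) and 108.5 and 229.7 (c8). Its groups did not overlap either, and its slope was 0.74 ± 0.05 (limma adjusted p = 6.0e-06). ACTA2, smooth muscle alpha actin, had 7631.6 and 7076.1 (c6) and 6624.3 (c8) at the end, against 2093.8 and 4731.7 (c6) and 4342.8 and 5767.5 (c8). Its rise was shallower, at a slope of 0.51 ± 0.08 (limma adjusted p = 0.00725), and its signal in c6 was lower at time 120 than at time 96.

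TAGLN encodes transgelin, an actin-binding protein of smooth muscle. It had signals of 1360.6 and 1638.5 (c6) and 1026.2 (c8) at the end, against 240.4 and 582.1 (c6) and 465.3 and 900.8 (c8), with a slope of 0.82 ± 0.09 (limma adjusted p = 0.000147). MYH11, smooth muscle myosin heavy chain and a marker of the mature contractile state, had 177.0 and 366.5 (c6) and 185.5 (c8), against 38.2 and 83.8 (c6) and 105.0 and 126.8 (c8). Its slope was 0.78 ± 0.09 (limma adjusted p = 0.000317), measured by a probe set whose name marks it as able to detect other transcripts. LMOD1, a nucleator of actin filaments in smooth muscle, stood at 89.5 and 165.4 (c6) and 88.0 (c8) at the end, against dim signals of 10.0 and 43.6 (c6) and 12.3 and 51.6 (c8) at times 48 and 72. The slope of LMOD1 was 0.93 ± 0.07 (limma adjusted p = 6.7e-06), the third steepest of all genes tested.

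MYOCD, the SRF partner, had 67.6 and 86.9 (c6) and 72.4 (c8) at the end, against 9.5 and 32.8 (c6) and 37.8 and 63.5 (c8). It rose at each step in both clones, with a slope of 0.59 ± 0.08 (limma adjusted p = 0.0032). PLN encodes phospholamban, which restrains the calcium pump of the sarcoplasmic reticulum, and it had the smallest p of the block comparison, with 234.7 and 376.6 (c6) and 160.5 (c8) against 45.6 and 101.8 (c6) and 75.1 and 69.6 (c8), a difference of 1.53 ± 0.23 (limma adjusted p = 0.105). KCNMB1, a subunit of the calcium-activated potassium channel that relaxes smooth muscle, had 66.1 and 64.9 (c6) and 93.1 (c8), against 10.9 and 27.8 (c6) and 51.8 and 56.4 (c8), and rose with a slope of 0.50. RGS5, a brake on G protein signalling and a pericyte marker, had 4593.5 and 4817.4 (c6) and 2076.5 (c8), against 1252.2 and 3196.9 (c6) and 1169.6 and 1398.1 (c8), and rose with a slope of 0.57 ± 0.08 (limma adjusted p = 0.00289). PPP1R12B, a myosin phosphatase subunit, and IRAG1, a target of cGMP-dependent kinase in smooth muscle, rose with slopes of 0.36 and 0.32; both were picked for mention after their values were seen, as were KCNMB1 and the other slope calls outside the lists.

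CNN1, calponin, had 42.6, 67.0, 110.1 and 168.8 at times 48, 72, 96 and 120 in c6, whereas in c8 it had 90, 116.3 and 103.3 at times 48, 72 and 96, so its groups overlapped, although the slope over both clones passed (0.42, limma adjusted p = 0.03). Among list members that did not pass, SYNPO2, an actin-binding protein of the Z-disc, differed by 0.54 ± 0.12 (limma adjusted p = 0.159) and SMTN, smoothelin, by -0.18 ± 0.13 (limma adjusted p = 0.894). The pericyte receptor PDGFRB differed by -0.21 and the muscle filament gene DES by 0.23, neither past the threshold. MYL4, an atrial and embryonic myosin light chain, and CRYAB, a small heat shock protein abundant in muscle, rose with slopes of 0.84 and 0.90; the probe set of MYL4 can detect other transcripts. MYL4 had 482.0 and 552.1 (c6) and 570.8 (c8) at the end, against 97.1 and 184.6 (c6) and 158.2 and 414.8 (c8).

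**Figure D2:**
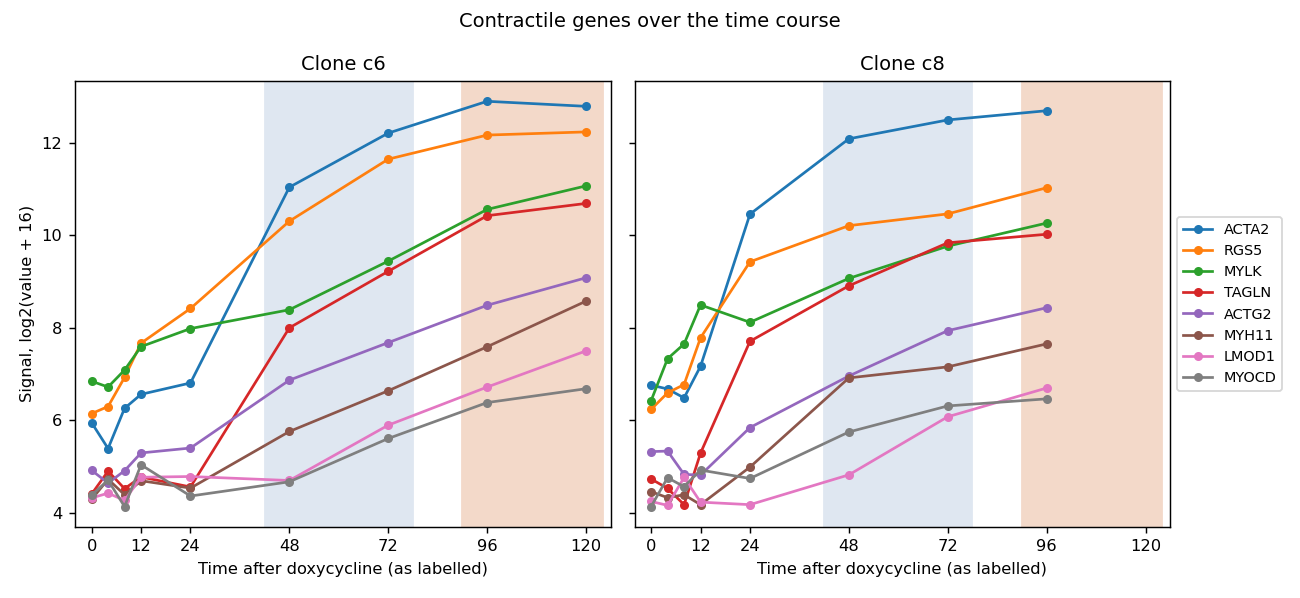
Signals of 8 contractile genes (vertical axis, log2 of signal + 16) by labelled time after doxycycline (horizontal axis) in clone c6 and clone c8, 1 array per point. The orange band holds the end arrays and the blue band those of times 48 and 72; MYLK, TAGLN, ACTG2, MYH11, LMOD1 and MYOCD climb through both bands in both clones, and ACTA2 flattens, with 7631.6 at time 96 and 7076.1 at time 120 in c6.

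TPM2 and TPM1 encode tropomyosins, which lie along the actin filament, and both rose by the slope. TPM2 had 530.6 and 567.7 (c6) and 79.1 (c8) at the end, against 133.3 and 190.9 (c6) and 54.4 and 69.7 (c8). The late difference was 1.68 in c6 and 0.29 in c8, a difference of 1.39 ± 0.29 (unadjusted p = 0.00047, limma adjusted p = 0.9999, not passed). TPM1 had 2541.5 and 3304.1 (c6) and 2824.1 (c8) at the end, against 1424.5 and 1909.6 (c6) and 2223.4 and 2685.3 (c8), a slope of 0.34 ± 0.05 (limma adjusted p = 0.0032). Over all genes, limma called 0 clone differences in the drift (0%), and 344 genes (2.52%) had an unadjusted p under 0.05. The median end difference of the smooth muscle and pericyte list was 0.48 in c6 and 0.35 in c8.

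Integrins and focal adhesion proteins anchor the actin filaments to the matrix. Of 41 genes on that list, 35 were tested, 3 rose by the slope and 0 fell, 7 had end arrays above and 0 below in both clones, and the median difference was 0.07 (over all genes 0.417% rose, 7.43% lay above and 6.40% below). The 3 were the alpha-actinins ACTN4 and ACTN1 and PDLIM5, which binds alpha-actinin. ACTN4 had 423.6 and 555.4 (c6) and 464.5 (c8) at the end, against 238.0 and 264.1 (c6) and 297.4 and 427.0 (c8), a slope of 0.39 (limma adjusted p = 0.0032). ACTN1 had 1134.2 and 1610.2 (c6) and 1122.5 (c8), against 660.0 and 779.0 (c6) and 809.0 and 1159.6 (c8), so that in c8 the end array lay between the others. VCL, vinculin, which links the plaques to actin, differed by 0.41 ± 0.10 and did not pass by the block (limma adjusted p = 0.22) or by the slope (adjusted p = 0.0809).

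YAP and TEAD are transcriptional regulators that respond to cell spreading and tension. Of 27 listed targets, 19 were tested, 5 rose and 0 fell by the slope, 7 had end arrays above and 0 below, and the median difference was 0.17 (over all genes 0.417% rose, 7.43% lay above and 6.40% below). The 5 were CCN2 and CCN1, secreted matricellular proteins, the junction proteins AMOTL2 and AJUBA, and MYOF, a membrane repair protein. CCN2 had 95.3 and 162.7 (c6) and 114.7 (c8) at the end, against 14.5 and 63.8 (c6) and 22.1 and 57.5 (c8), a slope of 0.83 ± 0.08 (limma adjusted p = 3.2e-05). CCN1 had 553.0 and 663.7 (c6) and 368.0 (c8) at the end, against 142.3 and 512.3 (c6) and 116.7 and 298.7 (c8) at times 48 and 72. It rose between times 48 and 72 by 1.49 ± 0.16 (limma adjusted p = 0.00019), beside 0.20 ± 0.16 between times 72 and 96 (not passed). The coactivator gene YAP1 itself differed by 0.36 ± 0.11 (limma adjusted p not passed, 259.1 to 340.7 at the end against 201.5 to 240.5).

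Extracellular matrix genes included rises and a fall. Of 34 tested matrix glycoproteins and proteoglycans, 3 rose and 0 fell by the slope, with a median difference of 0.07, and of 17 tested collagens 2 rose and 1 fell, with a median of 0.09 (over all genes 0.417% rose and 0.0658% fell). TNMD, tenomodulin, a membrane protein of tendon cells, had the largest difference of all genes tested, with 515.0 and 713.3 (c6) and 680.1 (c8) at the end, against 38.2 and 217.0 (c6) and 202.2 and 362.5 (c8), a difference of 1.99 ± 0.39 (limma adjusted p = 0.12) and a slope of 1.13 ± 0.11 (adjusted p = 4.4e-05). MGP, matrix Gla protein, an inhibitor of calcification made by vascular smooth muscle, had 359.7 and 534.8 (c6) and 292.4 (c8), against 34.2 and 155.2 (c6) and 60.3 and 165.8 (c8), a slope of 1.11 ± 0.08 (limma adjusted p = 6.0e-06). LUM, lumican, a proteoglycan of collagen fibres, had 656.4 and 1247.6 (c6) and 342.9 (c8), against 181.7 and 379.3 (c6) and 136.7 and 227.2 (c8), a slope of 0.80 ± 0.06 (limma adjusted p = 6.0e-06). All 3 rose at each late step in both clones.

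Among the collagens, COL14A1 and COL11A1, fibril-associated and fibrillar chains, rose, and the fibrillar chain COL5A1 fell. COL11A1 had 500.9 and 706.9 (c6) and 443.3 (c8) at the end, against 256.3 and 305.2 (c6) and 341.5 and 274.1 (c8), a slope of 0.40 (limma adjusted p = 0.0187). COL5A1 had 448.9 and 420.2 (c6) and 366.3 (c8), against 884.3 and 586.8 (c6) and 621.4 and 346.2 (c8), a slope of -0.36 (limma adjusted p = 0.0153), with overlap in c8. COL3A1, the fibrillar collagen of vessel walls, had 6491.0 and 6790.3 (c6) and 4921.7 (c8) at the end, against 3306.1 and 5428.9 (c6) and 4284.5 and 4644.7 (c8) at times 48 and 72. Its difference was 0.44 ± 0.15 (limma adjusted p = 0.5) and its slope just missed the threshold (0.27, adjusted p = 0.0506).

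Of 19 tested genes of mesenchymal surface and cytoplasm, 3 rose and 0 fell by the slope: ANXA1, an annexin that binds membranes, S100A4, a calcium-binding protein linked to motility, and LGALS1, galectin-1 (0.417% of all genes rose). ANXA1 had 103.0 and 145.9 (c6) and 64.1 (c8) at the end, against 16.2 and 62.4 (c6) and 15.1 and 30.6 (c8), a slope of 0.74 (limma adjusted p = 0.000189). The list of axon guidance and chemokine genes had 33 tested members, of which 3 rose and 0 fell, beside 0.417% and 0.0658% of all genes: NTN4, a netrin of basement membranes, the netrin receptor UNC5C, and CXCL12, the ligand of CXCR4. UNC5C had a slope of 0.40, and its other probe sets had slopes of 0.15 and 0.12. CXCL12 had 1009.3 and 1156.9 (c6) and 904.3 (c8) at the end, against 667.1 and 773.9 (c6) and 658.7 and 818.0 (c8), a slope of 0.26 (limma adjusted p = 0.013), although a second probe set of CXCL12 had a slope of -0.03. Its receptor CXCR4 differed by 0.12 ± 0.12 (limma adjusted p = 0.93). EDN1, endothelin, a peptide that contracts vessels, rose with a slope of 0.34 and had 101.0 and 128.3 (c6) and 118.6 (c8), against 50.4 and 74.9 (c6) and 79.4 and 121.4 (c8).

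Of 28 tested genes in the list for TGF-beta and BMP signalling, 2 rose by the slope (CCN2 and CCN1, also counted above) and 0 fell, beside 0.417% and 0.0658% of all genes. The ligand genes TGFB3 and TGFB1 differed in opposite directions, by 0.74 ± 0.15 and by -0.48 ± 0.13, and neither passed the block comparison (limma adjusted p = 0.12 and 0.374).

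No gene of the Notch target list passed in the late phase. NOTCH3 itself, whose probe set was not checked for overlap with the construct, had 393.4 and 452.6 (c6) and 835.6 (c8) at the end, against 467.3 and 424.5 (c6) and 793.9 and 703.3 (c8), a difference of 0.02 ± 0.10 whose sign changed with the setting. Of 22 tested Notch targets, 0 rose and 0 fell by the slope, and their median difference was 0.04 (-0.02 after median centring), whereas 13 of the 22 had been called higher in the middle arrays against the start (2.94% of all genes). HEY1, a Notch-induced repressor, had 2637.2 and 2238.8 (c6) and 3183.7 (c8) at the end, against 3313.6 and 2377.4 (c6) and 3217.5 and 2922.6 (c8). JAG1, a Notch ligand that is itself a Notch target, had 3420.3 and 3375.5 (c6) and 3224.7 (c8), against 2517.5 and 3077.4 (c6) and 3485.6 and 2629.5 (c8). Both overlapped between the groups.

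HES1, a classical Notch target, differed most of the HES and HEY genes, with 308.2 and 295.8 (c6) and 150.7 (c8) at the end, against 111.6 and 188.9 (c6) and 129.3 and 142.8 (c8). The difference was 0.64 ± 0.18 (limma adjusted p = 0.383, not passed), with end arrays above in both clones, and the slope was 0.35 (adjusted p = 0.0596). HES4 differed by 0.27, HEY2 by 0.30, HEYL by -0.10, NRARP by -0.11 and HES5 by -0.07, none past the threshold. MYC, another Notch target, had 287.9 and 226.4 (c6) and 147.5 (c8), against 533.6 and 344.4 (c6) and 167.0 and 150.2 (c8), a difference of -0.47 ± 0.17 (limma adjusted p = 0.584) and a slope of -0.29 (adjusted p = 0.0568). TMEM100 and HES6 differed by 0.54 and -0.48, neither past the threshold.

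**Figure D3:**
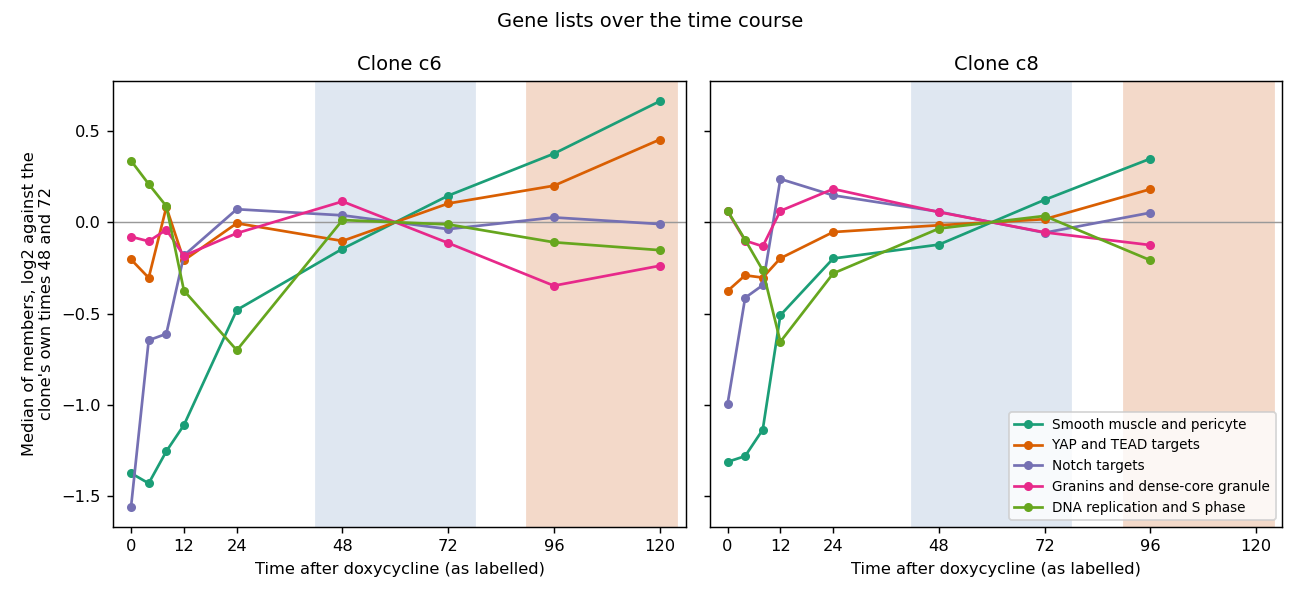
Median of the tested members of 5 gene lists at each labelled time (horizontal axis), as log2 against the same clone's mean of times 48 and 72 (vertical axis), clones c6 and c8, 1 array per point; the orange band holds the end arrays and the blue band those of times 48 and 72. The smooth muscle and pericyte list stands at 0.38 and 0.66 (c6) and 0.35 (c8) in the orange band, whereas the Notch targets stand at 0.03 and -0.01 (c6) and 0.05 (c8).

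Whether the rising genes were already called earlier was read from arrays that the drift does not use. In the middle arrays against the start arrays, limma called 402 genes higher (2.94%) and 183 lower (1.34%), or 257 and 182 after median centring. The count rests on single arrays: without the time 0 array of c6 it was 49 higher and 1 lower, without that of c8 20 and 2, without c8 at time 12 it was 162 and 32, and without c6 at time 12 it was 1213 and 812. Of the 57 late rising genes, 12 (21.1%) were among those higher and 0 among those lower, and 45 were not called. Of the 9 late falling genes, 3 (33.3%) were among those higher and 1 (11.1%) among those lower, and 5 were not called. The 12 included MYLK, TPM1, RGS5, COL11A1, CXCL12, NTN4, UNC5C, S100A4, LGALS1 and MYOF. Of the 57, 15 had a signal under 16 in both clones at time 0, against 1344 of all 13675 genes. TNMD had 0.6 (c6) and 2.0 (c8) at time 0, and 2.2 (c6) and 29.5 (c8) at time 24. ANXA1, at 0.8 (c6) and 2.4 (c8) at time 24, and LMOD1, at 11.6 (c6) and 2.1 (c8), were likewise near the bottom of the scale 24 units after doxycycline.

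Between the middle arrays and those of times 48 and 72, limma called 21 genes higher (0.154%) and 5 lower (0.0366%). These calls are not stable: 0 genes were called with no filter on dim genes, with no variance trend, or without any 1 of the arrays of clone c6 at time 24 or 72 or clone c8 at time 12 or 72, and 1 was called without clone c8 at time 48. Leaving out clone c6 at time 12 gave 119 higher and 70 lower, and leaving out clone c8 at time 24 gave 130 higher and 56 lower. This stretch shares the arrays of times 48 and 72 with the drift, so its values are only set beside it. ACTA2 differed by 4.21 there (limma adjusted p = 0.0205) and by 0.89 in the drift, TAGLN by 3.41 and 1.43, TNMD by 3.02 and 1.99, ACTG2 by 2.02 and 1.30, and RGS5 by 2.33 and 1.01. CXCR4 and the cell cycle inhibitor gene CDKN1C had lower signals at times 48 and 72 than in the middle arrays, by -0.91 and -1.37 (limma adjusted p = 0.0316 and 0.0245), and differed by 0.12 and 0.17 in the drift.

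**Figure D4:**
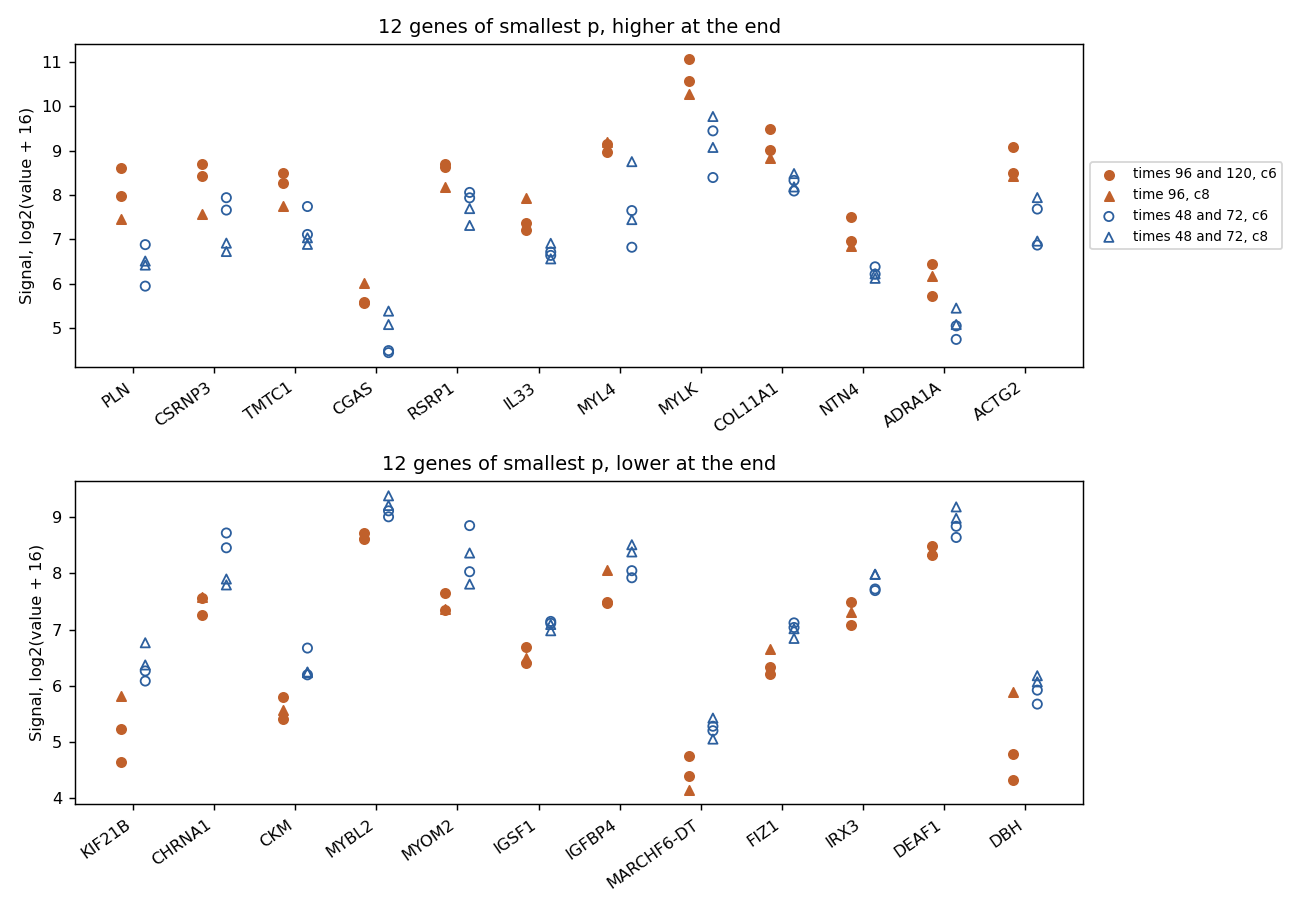
Signals (vertical axis, log2 of signal + 16) of the 12 genes of smallest p that were higher at the end (top) and the 12 that were lower (bottom), with end and earlier arrays apart in both clones. Filled orange marks are the end arrays and open blue marks those of times 48 and 72, circles clone c6 and triangles clone c8; none of the 24 passed the limma adjusted threshold in the block comparison.

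The 12 genes of smallest p that were higher at the end without overlap were PLN, CSRNP3, TMTC1, CGAS, RSRP1, IL33, MYL4, MYLK, COL11A1, NTN4, ADRA1A and ACTG2, none of which passed. They were chosen by p within this comparison, and PLN, MYL4, MYLK, ACTG2, TMTC1, CGAS, COL11A1 and NTN4 passed by the slope. ADRA1A, the alpha-1A adrenergic receptor, had 37.1 and 71.3 (c6) and 55.8 (c8) at the end, against 17.1 and 10.8 (c6) and 27.7 and 17.8 (c8). IL33, a cytokine stored in the nucleus, had 132.0 and 149.1 (c6) and 226.6 (c8), against 89.0 and 83.6 (c6) and 78.3 and 104.2 (c8). CGAS, a sensor of cytosolic DNA, was dim throughout, at 31.6 and 32.3 (c6) and 48.8 (c8) against 5.8 and 6.5 (c6) and 17.8 and 25.7 (c8), and its probe set can detect other transcripts.

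Among the 9 genes that fell with late time were MYOM2, a component of the sarcomere's M band, CKM, muscle creatine kinase, and CHRNA1, the muscle acetylcholine receptor subunit. MYOM2 had 184.2 and 147.2 (c6) and 148.4 (c8) at the end, against 446.6 and 245.7 (c6) and 313.7 and 208.6 (c8), and fell at each step in both clones with a slope of -0.49 ± 0.06 (limma adjusted p = 0.000366). At time 0 it had 42.9 (c6) and 28.4 (c8), so its late fall followed higher signals of 254.2 (c6) and 484.7 (c8) at time 24. CHRNA1 had 173.5 and 137.4 (c6) and 174.8 (c8), against 406.2 and 335.7 (c6) and 223.1 and 206.3 (c8), a slope of -0.42 (limma adjusted p = 0.0115). CKM had 39.9 and 26.5 (c6) and 31.6 (c8), against 85.9 and 57.2 (c6) and 59.8 and 59.1 (c8), a slope of -0.39 (limma adjusted p = 0.0177). CHRNA9, a related receptor subunit, had 33.8 and 28.3 (c6) and 41.3 (c8), against 156.8 and 52.8 (c6) and 76.7 and 33.6 (c8), a slope of -0.55 (limma adjusted p = 0.0228), with overlap in c8.

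The remaining falling genes were SCG2, HAND1, COL5A1, KLHL6 and TMEM204. SCG2, secretogranin, a granule protein of neuroendocrine cells, had 342.0 and 312.7 (c6) and 137.8 (c8) at the end, against 613.7 and 395.7 (c6) and 251.4 and 175.9 (c8), a slope of -0.33 (limma adjusted p = 0.0119). HAND1, a transcription factor of the sympathetic lineage, had 511.4 and 450.4 (c6) and 708.2 (c8), against 825.2 and 660.1 (c6) and 839.4 and 807.0 (c8), a slope of -0.24 (limma adjusted p = 0.0422). At time 0 HAND1 had 1448.8 (c6) and 1635.0 (c8), and it was called lower already in the middle arrays.

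The neuroblast lists held few calls beside these. Genes outside these lists that rose by the slope included the neurotrophin receptor gene NTRK3 (0.34) and SLITRK6 (0.40). The neuropeptide genes GRP (0.47) and NMU (0.44) rose as well. Of 18 tested granin and dense-core granule genes, 0 rose and 1 fell by the slope, 1 had end arrays above and 5 below, and the median difference was -0.17 (over all genes 0.0658% fell, 7.43% lay above and 6.40% below). GAL, the neuropeptide galanin, had 809.2 and 738.7 (c6) and 933.2 (c8), against 1046.8 and 1020.0 (c6) and 1052.9 and 1140.8 (c8), and did not pass. Of 20 tested adrenergic transcription factors, 0 rose and 1 fell (0.0658% of all genes fell), with a median of -0.07; PHOX2A differed by -0.32 and HAND2 by 0.26, neither past the threshold. DBH, the enzyme that makes noradrenaline, had 3.9 and 11.5 (c6) and 42.9 (c8), against 44.6 and 35 (c6) and 51.1 and 56.4 (c8), a difference of -0.85 ± 0.21 (limma adjusted p = 0.27), after 192.3 (c6) and 244.8 (c8) at time 0.

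DNA replication genes had small differences of mostly 1 sign. Of 48 tested genes of DNA replication and S phase, 0 passed either test, 46 had a negative and 2 a positive difference, 0 had end arrays above and 17 had end arrays below those of times 48 and 72 in both clones (35.4%, beside 6.40% of all genes), and the median difference was -0.17. Such genes share their variation within an array, so the members are not independent. A count of signs this uneven was also seen in another list. Of 47 tested cytoplasmic ribosomal protein genes, 45 had a positive and 2 a negative difference, with a median of 0.05. The median member of the DNA replication list stood at -0.11 and -0.15 (c6, times 96 and 120) and -0.21 (c8, time 96) against the clone's own mean of times 48 and 72. The helicase subunit gene MCM7 had 956.2 and 1015.7 (c6) and 1162.7 (c8), against 1240.8 and 1149.5 (c6) and 1316.7 and 1786.3 (c8), and the DNA ligase gene LIG1 had 189.5 and 203.3 (c6) and 217.0 (c8), against 261.4 and 247.4 (c6) and 265.2 and 262.1 (c8). RRM2, a ribonucleotide reductase subunit, differed by -0.27 and E2F1, a transcription factor of S phase entry, by -0.33. The same list had a median of -0.73 in the middle arrays against the start. Its median at times 48 and 72 against the middle arrays was 0.49, so the late difference followed a rise.

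Other cell cycle genes also gave no call. Of 46 tested G2 and mitosis genes, 0 passed, 0 had end arrays above and 3 (6.52%) had end arrays below, close to the 6.40% of all genes, and the median was -0.08. The proliferation marker MKI67 differed by -0.05 ± 0.11 and CCND1 by 0.01 ± 0.10, and MYBL2, a transcription factor of cycling cells, by -0.47 ± 0.10 (limma adjusted p = 0.155, not passed). Of 40 tested amino acid and integrated stress response genes, 0 passed, 0 lay above and 8 (20%) below in both clones, beside 7.43% above and 6.40% below over all genes, with a median of -0.11; SLC7A5, an amino acid transporter, differed by -0.41.

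**Figure D5:**
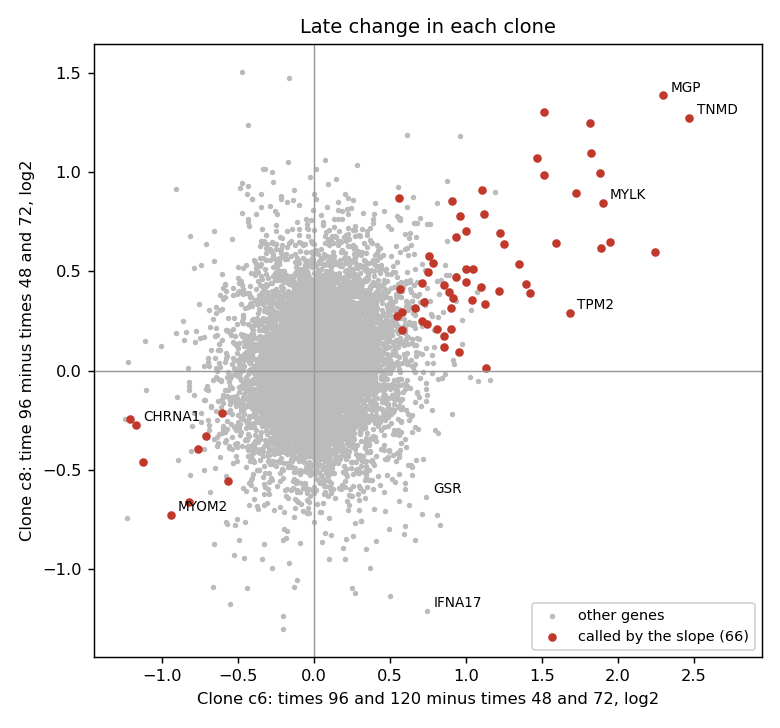
Late change of each gene in clone c6 (horizontal axis, times 96 and 120 minus times 48 and 72, log2) against that in clone c8 (vertical axis, time 96 minus times 48 and 72, log2). Red points are the 66 genes called by the slope; MGP, at 2.29 in c6 and 1.39 in c8, lies high in both, and TPM2, at 1.68 and 0.29, lies high in c6.

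In clone c6, which also had the later time, 45 genes differed 2-fold or more between the end and times 48 and 72, and 29 did in c8, 6 of them in both clones in the same direction. Of the 45, 39 had the same sign in c8 (86.7%, beside 55.7% of all genes). RAC3, a small GTPase, and RAD23B, a DNA repair factor, called higher between times 48 and 72, did not keep that level in c6: RAC3 had 14.8, 45.1, 37.2 and 3.4 at times 48, 72, 96 and 120, and RAD23B had 808.0, 1362.1, 1834.8 and 845.9. The long non-coding RNA LOC101927040, called lower in that step, had 376.9, 104.5, 94.6 and 75.6 in c6 and 208.5, 80.9 and 147.5 in c8.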

How the data were processed

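RNA from 17 samples of the human cell line IMR32 was measured on Affymetrix arrays of 54675 probe sets, 7 of which enter the late comparison. The authors deposited linear probe set intensities, made with MAS5 and GCOS per the submitters' processing notes (with neither versions nor a genome build). The deposited intensities share 1 trimmed mean, and no further normalization was added. They were transformed as log2(value + 16), so log2 changes of dim genes are understated. The platform annotation gave 1 symbol to 41097 probe sets, several to 1801 and none to 11777, and 41043 were found by gene ID in RefSeq (GRCh38.p14). Each gene took its probe set of highest mean, and genes under the 40th percentile (4.68) were left out, which kept 13675 of 19775. No array pair shared more than 1.42% of its values.

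limma 3.58.1 in R 4.3.3 (lmFit, eBayes with trend) was used with the clone as a term and Benjamini-Hochberg adjustment at 0.05 over all genes tested; the late comparison had 4 residual degrees of freedom. The code was tested on simulated data. The members, the 41 gene lists and the tests were chosen with earlier results of these data known, and nothing here is independent support for them. Named genes were, per direction, the 12 largest past the threshold, filled by smallest unadjusted p among genes whose groups did not overlap; up to 4 members of smallest p per list; up to 5 per step and clone difference, else 2; and genes fixed by name (JAG1, NOTCH3, NRARP, HEYL, HEY2, HEY1, HES5, HES4, HES1, COL3A1, ACTA2, TAGLN, RGS5, TNMD, LUM, MYCN, MYC, DBH, PHOX2A, HAND2, GATA3, MKI67, CCND1, CXCR4 and CDKN1C). Other names were chosen after their values were seen. The slope was another form of the late comparison, and settings applied to it were added after seeing the data.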

Additional observations from a re-analysis of the deposited data

Results flagged for a closer look

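Among 105 genes named here, 4 differed in opposite directions in the clones, every end array of c6 lying on one side of times 48 and 72 and that of c8 on the other, as c6 change minus c8 change: GSR, a glutathione reductase, by 1.37 (258.1 and 288.1 in c6 and 206.0 in c8 at the end, against 154.0 and 161.2 in c6 and 305.2 and 354.6 in c8), IFNA17 by 1.95 (16.9 and 19.2 in c6 and 1.2 in c8, against 2.9 and 6.0 in c6 and 22.2 and 25.6 in c8), HEY2 by 0.60 and HES5 by -0.75. In each of these 4 genes the difference itself did not pass (limma adjusted p = 0.9999). How many of all genes did the same was not counted, so the 4 are a description and not a result. GSR and IFNA17 were named because they had the smallest p for this difference.

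Among the 4 arrays of times 48 and 72, 3 of the 105 genes had 1 array apart from the other three, by the gap divided by the range: CKM in clone c6 at time 48 (signal 85.9, 0.894 of the range), HAND1 in clone c6 at time 72 (660.1, 0.836) and MYCN in clone c8 at time 48 (4237.5, 0.857). Chance gives about 1 such flag in 20 groups.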

How the results depend on the processing

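In the block comparison, 0 genes were called under changes of pseudocount, normalization, filter, probe sets or variance model, without a clone term, in c8 alone and without time 120. A fit over all 17 arrays called 10 higher and 1 lower, c6 alone 1 higher, the slope 57 and 9, and leaving out each array 0 to 8 higher and 0 lower. The slope called 20 rising and 1 falling with no filter on dim genes, 32 rising with the mean of probe sets, 17 and 3 without a variance trend, 12 and 0 with no clone term, 16 and 2 in c8 alone, 17 and 1 without time 120, 19 falling in c6 alone and 14 falling after quantile normalization; leaving out each array gave 17 to 85 rising and 1 to 23 falling. ACTG2 and MGP passed in all 20 settings tried for the slope, and 9 further genes in 19. For CCN2 and LMOD1 these were all 19 settings in which they were tested, and ANXA1 passed in all 18 of its settings. Of 1305 repeats of the 66 slope calls, 905 passed, 400 did not and 0 changed sign. Of 2291 repeats of named genes under other settings of the late comparison, 72 passed and 49 changed sign without passing. These settings include the slope, so the 72 are not all passes of the block comparison. The smooth muscle list had 5 rising with no filter, 6 with the mean of probe sets, 6 without a trend, 4 with no clone term, 2 in c8 alone and 6 to 11 leaving out each array; its median was 0.65 at pseudocount 1 and 0.31 with no filter. The S phase median was -0.23 after median centring, and the granin median was -0.29 in c6 alone and -0.29 to -0.11 leaving out each array.

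From time 48 to 72, quantile normalization gave 6 higher and 0 lower, median centring 6 higher, no filter or no trend 0 and 0, pseudocount 64 and the 60th percentile filter 3 lower each, and leaving out each array 11 to 82 higher and 4 to 122 lower. From 72 to 96 leaving out each array gave 1 to 29 calls, and from 96 to 120 5 to 15, with 1 at pseudocount 1. The middle against the start gave 257 higher after median centring, 182 higher and 46 lower with no filter, 197 and 47 with no trend, and 20 to 1213 higher and 1 to 812 lower leaving out each array. Times 48 and 72 against the middle gave 9 higher and 1 lower at pseudocount 1, 0 and 0 with no filter or no trend, 10 and 3 at the 60th percentile, and 0 to 130 higher and 0 to 70 lower leaving out each array. No clone difference was called when each array was left out in turn, where it could be fitted. The cause of these changes was not tested. Pairing is by clone, a term of the model. No paired analysis by replicate number was possible because the labels carry none.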
